A study of Mus musculus with 18 samples.

Results

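The astrocyte lineage markers of this series were followed through the differentiation of cultured mouse oligodendrocyte progenitor cells (OPCs), which divide and can mature into the oligodendrocytes that make myelin. The 10 genes, of 38046 in the table, were taken by gene symbol: Gfap, Aqp4, S100b, Aldh1l1, Slc1a2, Slc1a3, Gja1, Glul, Fabp7 and Sox9. They were selected on the Gfap values of these libraries, because Gfap was nearly absent from control clone D7 after 4 days of differentiation and high in control clones D3 and E8. Gfap is therefore described without a test, and so is every difference between clone D7 and the other clones. Fits that leave D7 out show only how far a result rests on that line.

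The cells were 6 clonal OPC lines derived from primary neural stem cells, 3 control lines (D7, D3 and E8) and 3 Thap1 null lines (3F, D6 and 7F). THAP1 binds DNA through a zinc finger, and the title of the series places it in oligodendrocyte development. Each line was sequenced once as OPCs kept in growth medium with PDGF-AA, and once each after 2 and 4 days in vitro (DIV2 and DIV4) in oligodendrocyte differentiation medium with the thyroid hormone T3, which gave 18 libraries in 6 groups of 3. Each clone is a single line, and the labels say neither how the null lines were generated nor how the lines relate to animals. P-values therefore measure the spread between these lines.

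Astrocytes and oligodendrocytes both arise from neural stem cells, and OPCs in culture can be turned toward an astrocyte fate by serum or bone morphogenetic proteins. Ciliary neurotrophic factor and related cytokines activate Gfap through STAT3, while nuclear factor I proteins, Notch and SMAD signalling prepare astrocyte genes for expression. Gfap and Aqp4 are the more restricted markers of the set. S100b, Glul, Fabp7, Slc1a3 and Sox9 are also made by neural progenitors or by cells of the oligodendrocyte lineage, so their presence in these cultures is not by itself a sign of astrocytes.

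Values are TPM (a length-corrected abundance scaled to a fixed total per library), summed per gene and then rescaled between libraries by the median ratio over genes, and are called rescaled TPM. Rescaling was needed because 3 noncoding features filled 64.76% to 87.98% of the deposited TPM of the control OPC libraries, against 0.3593% to 34.8% of every other library. Sequencing depth is unknown, since TPM does not keep it. The coding transcripts of Thap1 lay between 1.922 and 4.414 rescaled TPM in the 9 control libraries and between 0.1982 and 0.7799 in the 9 null libraries, with no overlap. All libraries came from whole cultures, in which fewer cells of a type and less RNA per cell cannot be told apart.

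Gfap lies on chromosome 11 (GRCm38, 102887336 to 102900912, minus strand), Slc1a3 on chromosome 15 (8634124 to 8710764, minus strand) and Fabp7 on chromosome 10 (57784881 to 57788450, plus strand). Bases near their starts are shown as examples of letters that match factors of astrocyte gene control. A link between these letters and the clone differences was not tested. The windows were placed by RefSeq and GENCODE transcript starts, and the Gfap window lies inside the gene span given. RefSeq promoter entries on GRCm38.p6 were found for 8 of the 10 genes. Capitals mark the only match in each window to TTCNNNGAA, the core of a STAT site, or to TTGGC, one arm of a nuclear factor I site, each searched on both strands.
Gfap, chr11:102897191-102897350, minus strand: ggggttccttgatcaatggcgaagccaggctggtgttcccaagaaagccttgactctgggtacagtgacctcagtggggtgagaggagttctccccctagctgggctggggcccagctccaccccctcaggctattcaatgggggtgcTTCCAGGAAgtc
Slc1a3, chr15:8710798-8710957, minus strand: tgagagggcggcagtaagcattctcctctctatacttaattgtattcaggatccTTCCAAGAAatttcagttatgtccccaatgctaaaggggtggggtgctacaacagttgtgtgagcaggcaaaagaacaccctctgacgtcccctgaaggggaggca
Fabp7, chr10:57784773-57784890, plus strand: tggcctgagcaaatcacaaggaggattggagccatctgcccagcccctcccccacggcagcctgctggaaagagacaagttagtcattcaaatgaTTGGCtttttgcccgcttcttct

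TTCNNNGAA occurred in the entries of Gfap and Slc1a3 and in none of the other 6, against 8.3% of 32851 RefSeq promoters. TTGGC occurred in the entries of Fabp7, Glul, Slc1a2 and S100b, against 46.7% of all promoters. S100b had 4 matches, Glul 2, and Slc1a2 and Fabp7 1 each. These are matches of letters in a fixed window, not measured binding sites. In the Gfap entry the match begins 2 bases before the RefSeq start, and the Gfap transcript that carries most of the signal starts 69 bases downstream of that start. The leading Slc1a3 transcript starts 43 bases downstream of its RefSeq start. The leading Fabp7 transcript starts upstream of its RefSeq start, at 57784881.

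Gfap, the intermediate filament protein that defines fibrous and reactive astrocytes, was the member with the widest range on the log2(rescaled TPM + 1) scale, 7.89, followed by Slc1a3 with 5.86 and Fabp7 with 5.58. In OPCs the control clones D7, D3 and E8 held 0.2482, 6.823 and 0.679 rescaled TPM, whereas null 3F, D6 and 7F held 0.1305, 1.586 and 0.5104. The D3 line stood above the other 5 already before differentiation. At DIV2 the control values were 0.01282, 18.99 and 19.09 and the null values 2.295, 6.319 and 3.193. Control D7 was the lowest of the 6 clones and D3 and E8 were the highest, with the 3 null clones between them.

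At DIV4 Gfap reached 102.6 in control D3 and 239.3 in control E8, while control D7 held 0.1763. The null clones held 84.51, 80.37 and 139. The null values overlapped those of D3 and E8, so that at this stage 5 of the 6 clones had Gfap at 80.37 or more and 1 clone had almost none. The group means at DIV4 were 114.1 ± 120 rescaled TPM (SD, n = 3) in control and 101.3 ± 32.74 (SD, n = 3) in null. In the deposited TPM the DIV4 values were 0.1678, 203.1 and 479.6 in control and 111.4, 118 and 193.3 in null, where D3 and E8 stood above the null clones. Whether D3 and E8 exceeded the null clones at DIV4 therefore depended on the scaling, and the near absence of Gfap from D7 did not.

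From DIV2 to DIV4 every null clone gained Gfap, by 4.70, 3.47 and 5.06 on the log2(rescaled TPM + 1) scale, as did control D3 by 2.37 and control E8 by 3.58. Control D7 moved by 0.22 from a level near 0. Most of the Gfap signal, 91.93% over all libraries, came from its main coding transcript, and 6.947% came from Gfap-202, another coding transcript. At DIV4 Gfap-202 made up 5.231% of Gfap in control D3, 2.866% in control E8, and 11.97%, 10.51% and 10.13% in the null clones. The share was thus higher in each null clone than in D3 or E8, while D7 had too little Gfap for its share of 10.54% to be read.

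**Figure D1:**
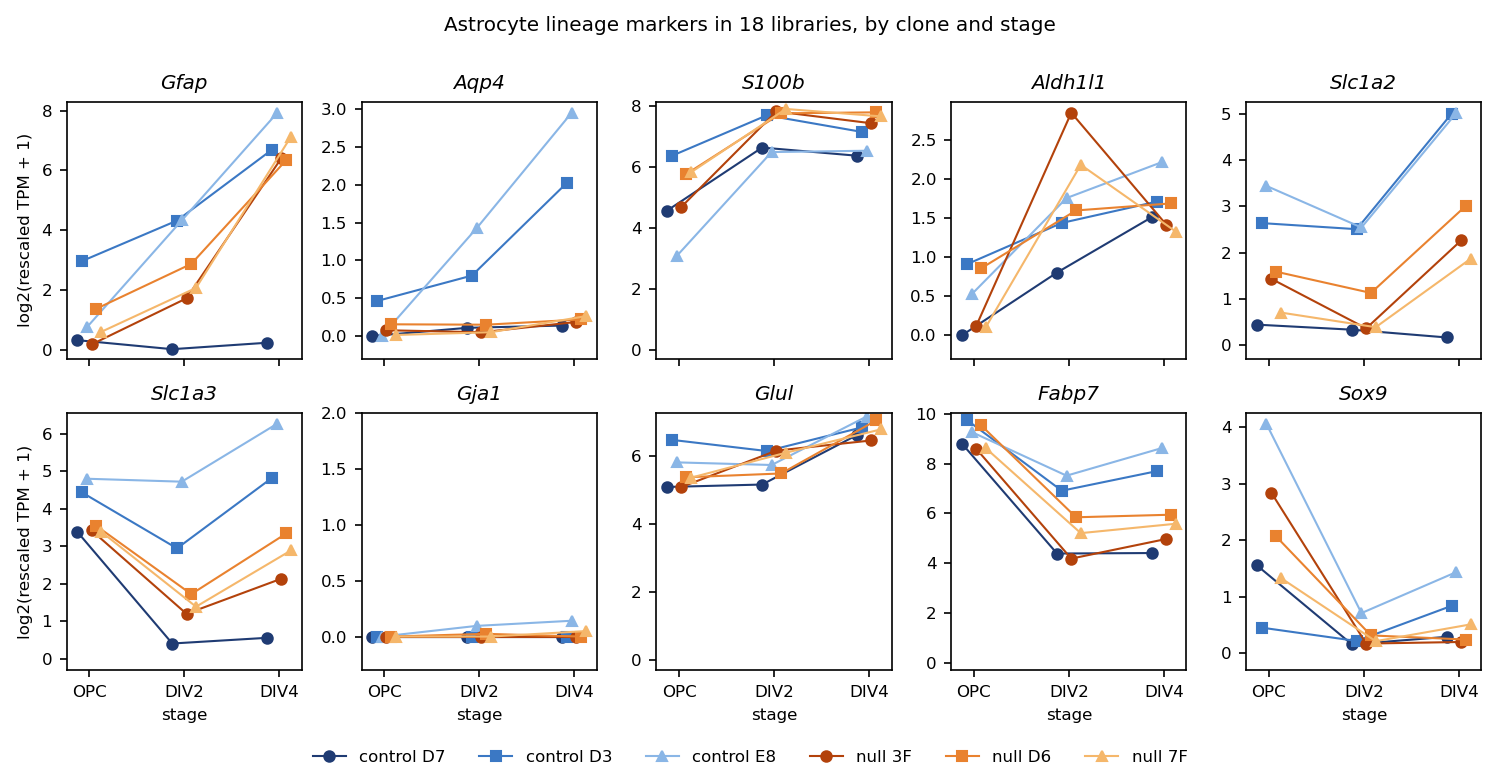
Rescaled TPM of the 10 genes on a log2(value + 1) axis, by stage, with 1 point per library and 1 line per clone (blue for control, orange for null; each panel has its own axis range). Gfap rises in 5 clones up to DIV4 and stays near 0 in control D7, while S100b rises and Fabp7 falls from OPC to DIV2 in all 6 clones.

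Aqp4 encodes the water channel of astrocyte endfeet. At DIV4 it stood at 0.1006 rescaled TPM in control D7, 3.074 in control D3 and 6.743 in control E8, against 0.1377, 0.1641 and 0.1999 in the null clones. At DIV2 the control values were 0.07802, 0.7405 and 1.688, and the highest null value was 0.1093. The null clones, which held Gfap at levels like those of D3, thus had Aqp4 at the level of D7. Aqp4 had a mean of 0.7589 over the 18 libraries and did not reach the mean of 1 needed for a test. Gja1, the gap junction protein connexin 43 that is abundant in mature astrocytes, was listed at 0 in 14 of the 18 libraries and reached 0.1029 at most, in control E8 at DIV4. Gja1 was the 1 member under 1 rescaled TPM in all 18 libraries.

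Of the 10 genes, 8 passed the filter, and 7 of these were tested between genotypes with limma on log2(rescaled TPM + 1) (all but Gfap). A call needs an adjusted p under 0.05 over the 12473 genes tested. In OPCs, 0 of the 7 genes was called in either direction, against backgrounds of 6.02% called higher in null and 5.94% called lower. At DIV2, 0 of 7 was called, against backgrounds of 1.65% higher and 1.15% lower. At DIV4, 0 of 7 was called, against 2.69% higher and 2.12% lower. An unadjusted p under 0.05 was held by 0 of 7 in OPCs, 1 of 7 at DIV2 and 0 of 7 at DIV4. Among all tested genes, 28.4%, 14.5% and 20.5% had one at these stages. The median log2 change of the 7 genes was -0.36 in OPCs, -0.13 at DIV2 and -0.54 at DIV4, beside medians of 0.039, 0 and -0.014 over all genes tested. With the deposited TPM, in which the OPC median of all genes was 1.503, S100b (2.54, adjusted p = 0.00301), Glul (1.52, adjusted p = 0.0102) and Sox9 (1.31, adjusted p = 0.027) were called higher in null OPCs and Slc1a2 stood at 0.34 (adjusted p = 0.788). On that scale 10407 of the 12894 genes tested were called higher there, so these calls do not set the members apart.

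Slc1a2 (GLT-1) and Slc1a3 (GLAST) are the glutamate transporters that clear transmitter from the synapse. Slc1a2 in OPCs held 0.3541, 5.221 and 9.871 rescaled TPM in control D7, D3 and E8, and 1.698, 2.001 and 0.6243 in null 3F, D6 and 7F. At DIV2 it held 0.2556, 4.679 and 4.825 in control and 0.2807, 1.18 and 0.3032 in null. At DIV4 it held 0.1171, 31.22 and 31.58 in control and 3.798, 7.07 and 2.644 in null. At all 3 stages control D7 was the lowest clone, D3 and E8 were the highest, and the null clones lay between. The genotype difference in Slc1a2 was -0.93 in OPCs (SE 1.08, adjusted p = 0.608), -1.17 at DIV2 (SE 1.08, adjusted p = 0.695) and -1.02 at DIV4 (SE 1.08, adjusted p = 0.66).

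Slc1a3 in OPCs held 9.468, 20.66 and 26.93 in control D7, D3 and E8, against 9.755, 10.69 and 9.515 in the null clones. At DIV2 the values were 0.3275, 6.709 and 25.45 in control and 1.298, 2.308 and 1.622 in null. At DIV4 they were 0.4753, 27.38 and 75.88 in control and 3.404, 9.149 and 6.421 in null. The order of the clones was the one seen for Slc1a2, with D7 below and D3 and E8 above the null clones at each stage. The genotype difference in Slc1a3 was -1.25 at DIV2 (SE 1.16, adjusted p = 0.694) and -1.09 at DIV4 (SE 1.16, adjusted p = 0.658), within the spread between the control clones.

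Fabp7, the brain fatty-acid binding protein of radial glia and young glial cells, was the most abundant member in OPCs, at 445, 864.9 and 618 rescaled TPM in control and 385.3, 744.3 and 392.8 in null. At DIV2 it held 19.91, 119.4 and 182.1 in control D7, D3 and E8 and 17.15, 56.43 and 35.92 in null. At DIV4 it held 20.2, 206.6 and 393.1 in control and 30.37, 60.68 and 46.95 in null. D3 and E8 again lay above every null clone at both stages, while D7 lay just above null 3F at DIV2 and below every null clone at DIV4. The Fabp7 difference was -1.19 at DIV2 (SE 0.92, adjusted p = 0.613) and -1.41 at DIV4 (SE 0.92, adjusted p = 0.428).

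These 3 genes are the ones for which the result rests on control D7. With D7 left out at all stages, Slc1a2 was lower in null at DIV2 by -1.90 (SE 0.38, adjusted p = 0.0152), Slc1a3 by -2.40 (SE 0.52, adjusted p = 0.0237) and Fabp7 by -2.14 (SE 0.49, adjusted p = 0.0308). At DIV4 the values without D7 were -2.64 for Slc1a2 (SE 0.38, adjusted p = 0.00208), -2.75 for Slc1a3 (SE 0.52, adjusted p = 0.00921) and -2.66 for Fabp7 (SE 0.49, adjusted p = 0.00864). The count was 3 of 7 called lower at each of these stages, against backgrounds without D7 of 2.2% at DIV2 and 3.28% at DIV4. In OPCs without D7, Slc1a2 (-1.80, SE 0.38, adjusted p = 0.00847) and Glul (-0.87, SE 0.26, adjusted p = 0.0407) were called lower, 2 of 7 against a background of 9.39%. Since D7 was the clone whose values led to the choice of these genes, the p-values and counts without it are not independent evidence. They describe how far the result rests on 1 line. The fit without D7 compares 3 null lines with 2 control lines, D3 and E8, which were named for their high Gfap.

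**Figure D2:**
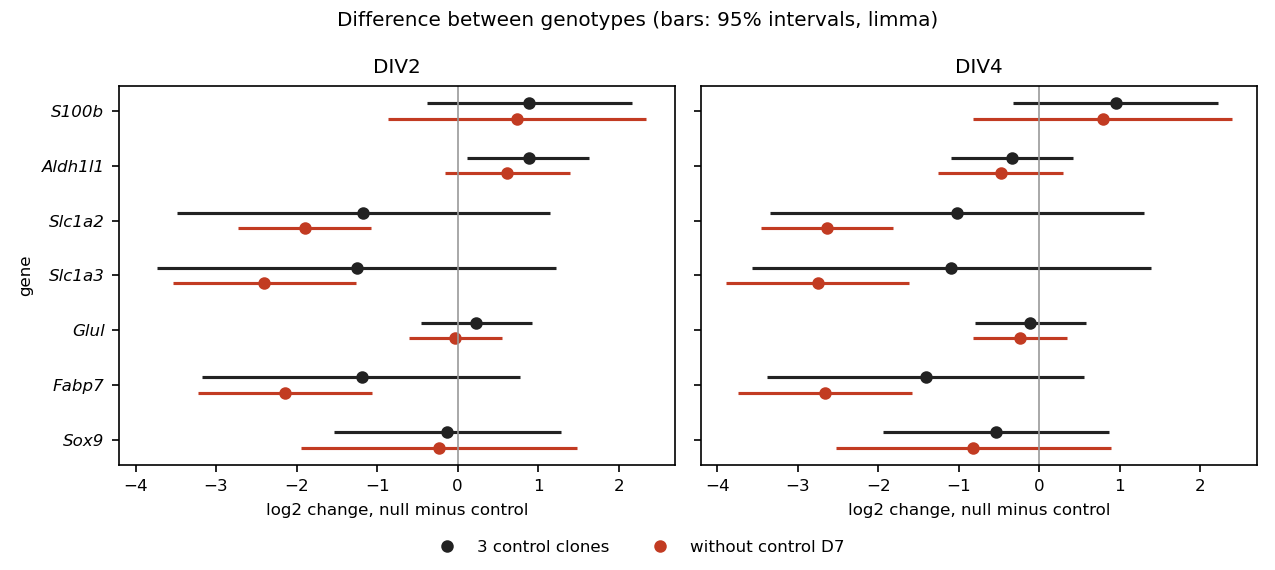
Log2 change (null minus control) of the 7 tested genes at DIV2 and DIV4, with 95% intervals from limma, for all 3 control clones (black) and without control D7 (red). Without D7 the intervals of Slc1a2, Slc1a3 and Fabp7 lie below 0 at both stages, while those of S100b, Glul and Sox9 span 0 with and without it. The choice of genes drew on values of D7, so the red intervals are not independent evidence.

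S100b, a calcium-binding protein of astrocytes that maturing oligodendrocytes also make, followed another pattern. In OPCs it held 22.55, 80.82 and 7.366 rescaled TPM in control and 24.63, 52.92 and 55.14 in null. At DIV2 the control values were 97.71, 204.5 and 88.09 and the null values 223.3, 213.9 and 236.4. At DIV4 the control values were 80.98, 139.9 and 90.82 and the null values 170.5, 218.9 and 199.6. At DIV2 and DIV4 every null clone lay above every control clone in rescaled TPM, D7 included. In the deposited TPM the genotypes overlapped. There control D3 held 349.2 at DIV2, above null 3F and D6 at 288.6 and 262, and 276.8 at DIV4, above null 3F at 224.8. The genotype difference after rescaling was 0.89 at DIV2 (SE 0.59, adjusted p = 0.534) and 0.95 at DIV4 (SE 0.59, adjusted p = 0.409). It was not called at either stage, nor was it in OPCs (0.76, SE 0.59, adjusted p = 0.428). The OPC value was -0.04 without control E8 and 1.60 without control D3 (adjusted p = 0.0196).

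Glul encodes glutamine synthetase, which turns the glutamate taken up by glia into glutamine, and is also made by oligodendrocytes. It was the most even of the 8 members that passed the filter, between 33.26 and 143.7 rescaled TPM over the 18 libraries. At DIV4 it held 98.2, 114.8 and 143.7 in control D7, D3 and E8 and 87.72, 132.4 and 110.2 in null, so that D7 lay within the range of the others. The difference at DIV4 was -0.11 (SE 0.32, 95% interval -0.80 to 0.58, adjusted p = 0.899). Of the 31-base words in Glul transcripts, 19.67% also occur in other genes, the pseudogene Glns-ps1 first among them, so its level is uncertain.

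Aldh1l1, a folate enzyme used as a general astrocyte marker, stayed low. In OPCs it held 0, 0.876 and 0.4361 rescaled TPM in control and 0.087, 0.8093 and 0.07414 in null. At DIV2 it held 0.7436, 1.706 and 2.374 in control and 6.19, 2.023 and 3.53 in null, and at DIV4 1.851, 2.269 and 3.634 in control and 1.666, 2.218 and 1.508 in null. The null clone 3F at DIV2 was the highest library. The DIV2 difference of 0.88 (SE 0.35) had an unadjusted p of 0.0259 and an adjusted p of 0.254. Of the Aldh1l1 signal, 60.27% came from its main coding transcript and 18.88% from a noncoding one, and exons of a lincRNA on the same strand overlap the gene.

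Sox9, a transcription factor of glial progenitors that astrocytes keep and oligodendrocytes switch off, held 1.93, 0.3668 and 15.6 rescaled TPM in control OPCs and 6.165, 3.19 and 1.515 in null OPCs. At DIV2 it was under 1 in all 6 clones. At DIV4 it held 0.2216, 0.7861 and 1.703 in control D7, D3 and E8, and 0.1466, 0.1813 and 0.4225 in null. At DIV4 the 2 control lines with high Slc1a2 were again above the null lines, at levels at or near 1.

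Between OPC and DIV2 the members moved in different directions. S100b rose in control by 2.27 (SE 0.59, adjusted p = 0.00915, higher in 3 of 3 clones) and in null by 2.40 (SE 0.59, adjusted p = 0.00777, higher in 3 of 3). Fabp7 fell in control with a log2 change of -3.01 (SE 0.92, adjusted p = 0.0209, lower in 3 of 3) and in null with one of -3.84 (SE 0.92, adjusted p = 0.00643, lower in 3 of 3). Aldh1l1 rose in null by 1.85 (SE 0.35, adjusted p = 0.00159), with a value of 0.85 in control (SE 0.35, adjusted p = 0.0735). Sox9 fell in null with a log2 change of -1.85 (SE 0.66, adjusted p = 0.0486), with -1.66 in control (SE 0.66, adjusted p = 0.0628).

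The counts were 1 of 7 higher and 1 of 7 lower in control, against a background of 17.7% higher and 17.3% lower. In null they were 2 of 7 higher and 2 of 7 lower, against 14.4% higher and 13.5% lower. With the clone as a block, Sox9 was also called in control (adjusted p = 0.0339) and Slc1a3 in null (-2.02, adjusted p = 0.0279, against 0.22 without the block). The Sox9 fall in control was uneven, with -1.40 in D7, -0.24 in D3 and -3.35 in E8. It was -0.82 without E8 (adjusted p = 0.224) and -0.28 in the deposited TPM (adjusted p = 0.613). In the deposited TPM the median log2 change of all genes from control OPC to DIV2 was 1.96, and the control change of Fabp7 was -0.27 (adjusted p = 0.819), lower than that median but no longer called. S100b in control lost its call without clone E8 (adjusted p = 0.0503), and Fabp7 in control lost it without D3 (adjusted p = 0.0642). In null, 0 of the 4 calls held without 3F and 1 of 4, Aldh1l1, held without D6 or without 7F. The difference between genotypes in this change was called for 0 of the 7 genes, against 0.265% of all genes higher and 0.2% lower. Aldh1l1 had the largest such difference, 0.99 (SE 0.50, adjusted p = 0.394), and 0 of the 7 had an unadjusted p under 0.05, where 13.8% of all genes did.

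Between DIV2 and DIV4, 0 of the 7 genes was called in control, against a background of 0.104% called higher and 0.128% called lower. In null 0 of 7 was called, against 1.06% higher and 1.04% lower. In each genotype 1 of the 7 had an unadjusted p under 0.05, as did 10.3% of all genes in control and 16.6% in null. Glul had the smallest p in both genotypes, with 1.20 in control (SE 0.32, adjusted p = 0.152) and 0.85 in null (SE 0.32, adjusted p = 0.194), and its level was higher at DIV4 in all 6 clones. Slc1a2 was higher at DIV4 in 5 of 6 clones, all but D7, with log2 changes of 2.50 and 2.48 in control D3 and E8 and of 1.91, 1.89 and 1.48 in the null clones. Slc1a3 was higher at DIV4 in all 6, by 0.15 in D7 and by 0.94 to 1.88 in the others. Fitted on the null DIV2 and DIV4 libraries alone, Slc1a2 (1.76, adjusted p = 0.0324) and Slc1a3 (1.35, adjusted p = 0.0494) were called. In the fit of all libraries, which takes in the wide spread of the control clones, their adjusted p-values were 0.456 and 0.628. Without D7 the control change of Slc1a2 was 2.49 (adjusted p = 0.0128), which rests on the lines D3 and E8 named for their high Gfap. For the difference between genotypes in this change, 0 of 7 was called, against 0.016% of all genes higher and 0.00802% lower. Aldh1l1 (-1.21, SE 0.50, adjusted p = 0.823) was the 1 gene of the 7 with an unadjusted p under 0.05, where 5.45% of all genes had one.

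Further astrocyte genes varied between the clones at DIV4, many of them with D7 low. Of 24 such genes, 19 reached 1 rescaled TPM in some clone at DIV4. In 13 of the 19, control D7 was below the other 5 clones, and in 11 of the 19 control D3 and E8 were both above all null clones. Both held in 8 of the 19, while Fgfr3 and Gpr37l1 had D3 and E8 below all null clones. Among all 14402 genes that reached 1 at DIV4, D7 was below the other 5 in 24.2% and above them in 28.7%. D3 and E8 were above null in 22.1%, and this held together with D7 below the other 5 in 5.32%. These counts carry no test, since D7, D3 and E8 were named in the choice of the genes. Mlc1, a membrane protein of astrocyte endfeet, held 0.0481 in D7, 40.18 in D3 and 97.61 in E8, against 2.273 to 3.881 in null. Apoe, the main lipid carrier secreted by astrocytes, held 1.542 in D7, 140.1 in D3 and 288.9 in E8, against 9.396 to 28.25 in null. Aldoc, an astrocyte form of the glycolytic aldolase, held 11.29 in D7, and the null clones at 95.6 to 184.3 overlapped D3 and E8 at 74.26 and 142.5. Itih3 went the other way, with 16.8 in D7 and at most 2.922 elsewhere.

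Of the 24 genes, 17 passed the filter and 0 was called between genotypes at any of the 3 stages, while 1, 0 and 4 had an unadjusted p under 0.05 in OPCs, at DIV2 and at DIV4, where 28.4%, 14.5% and 20.5% of all genes did. Without D7, Mlc1 (-3.90, adjusted p = 0.000603), Apoe (-3.60, adjusted p = 0.00409) and Slc25a18, a mitochondrial glutamate carrier (-2.29, adjusted p = 0.000718), were called lower in null at DIV4, 3 of 17 against a background of 3.28%. The difference was not limited to DIV4. Mlc1, Apoe and Slc25a18 were also called lower without D7 in OPCs (adjusted p from 0.00213 to 0.0148) and at DIV2 (0.000737 to 0.00811). So were Slc7a10 and Id3 in OPCs (background 9.39%) and Sparcl1 at DIV2 (background 2.2%). The limit given above holds here too, since the control lines left are the 2 named for their high Gfap. From OPC to DIV2, Itih3 (1.96, adjusted p = 0.0377) and the protease gene Htra1 (1.24, adjusted p = 0.0295) rose in control (2 of 17, background 17.7%), and Acsbg1, a fatty acyl-CoA synthetase (1.69, adjusted p = 0.0385), rose in null (1 of 17, background 14.4%). From DIV2 to DIV4 the growth factor receptor gene Fgfr3 rose in null (1.51, adjusted p = 0.0399), 1 of 17 against 1.06%. With all clones in the fit, the remaining comparisons held no call among these 17 genes. Each of these calls was lost when at least 1 clone was left out, Itih3 without D7 or D3, Htra1 without D7 or E8, and Acsbg1 and Fgfr3 without any 1 of the null clones.

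**Figure D3:**
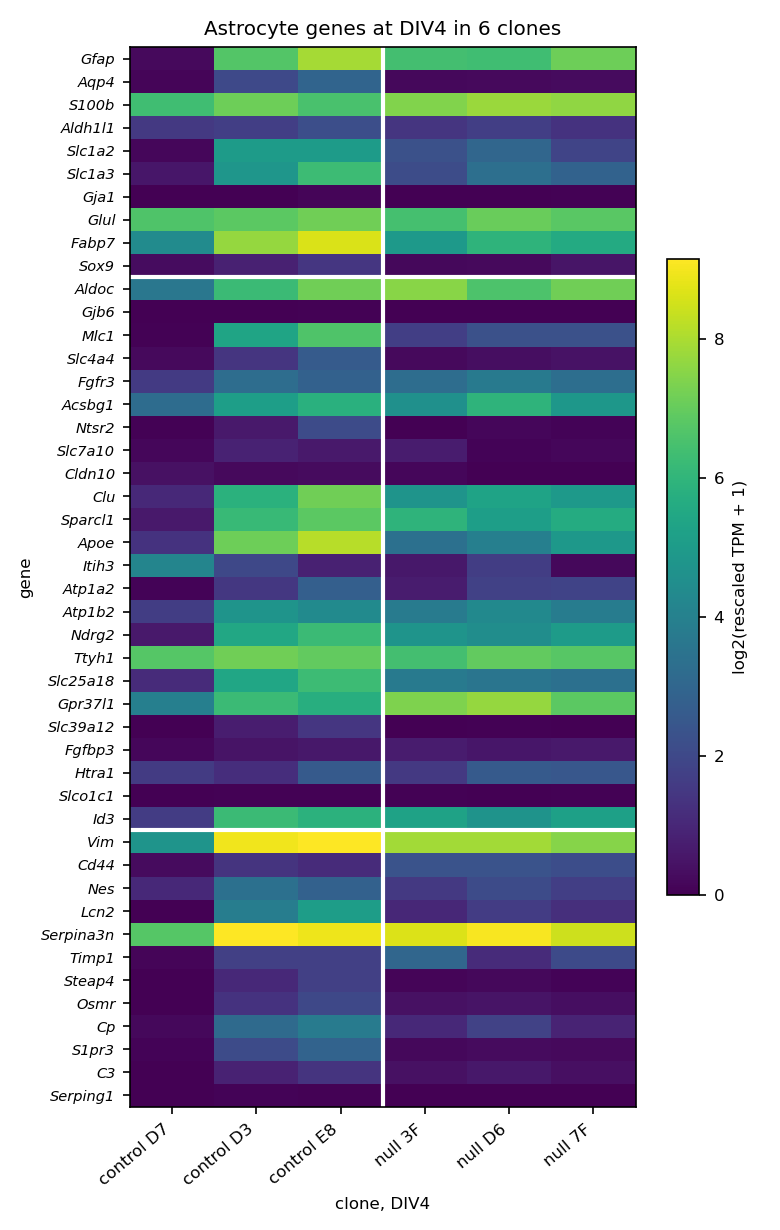
Log2(rescaled TPM + 1) at DIV4 of the 10 members (top block), 24 further astrocyte genes (middle) and 12 genes of reactive astrocytes (bottom) in the 6 clones, with colour from dark (0) to yellow (high). The column of control D7 is dark for Gfap, Mlc1 and Apoe. The null columns are darker than control D3 and E8 for Aqp4, Mlc1, Apoe and Lcn2 but not for S100b. For Gfap the null columns are darker than E8 and lie on both sides of D3.

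Genes of reactive astrocytes, the state that follows injury or inflammation, were also low in D7 at DIV4. Of 12 genes, 11 reached 1 at DIV4, and in all 11 D7 was the lowest clone. In 8 of the 11, D3 and E8 were both above all null clones. The shares over all genes were those given above, 24.2% and 22.1%. Vim, the intermediate filament vimentin, held 25.76 in D7, 502.6 in D3 and 570 in E8, against 179.8 to 238 in null. Lcn2, the secreted lipocalin, was listed at 0 in D7 and held 13.56 and 33.01 in D3 and E8, against 1.014 to 2.089 in null. Between genotypes, of 7 tested, 0 was called in OPCs, and Cd44, a hyaluronan receptor, was the 1 call at DIV2 (1.10, adjusted p = 0.0475) and at DIV4 (1.36, adjusted p = 0.0127), higher in null, where 1.65% and 2.69% of all genes were called higher. Cd44 held 0.1952, 1.574 and 1.203 in control at DIV4 and 4.096, 4.048 and 3.445 in null, so that the genotypes did not overlap. Without D7, 3 of the 7 were called lower in null at DIV4 (background 3.28%), Lcn2 (-3.18, adjusted p = 0.000556), Cp (-2.22, adjusted p = 0.00246) and Vim (-1.30, adjusted p = 0.0124), with the same limit on the choice of lines. Under that limit Lcn2 and Vim were also called lower at DIV2 (adjusted p = 0.0106 and 0.0307, background 2.2%). Serpina3n was called lower in OPCs (adjusted p = 0.0388, background 9.39%). The Cd44 call held without D7 at both stages, was lost without any 1 null clone, and was lost at DIV2 also without D3 or E8. From OPC to DIV2, Vim and Nes, the progenitor filament nestin, fell in both genotypes (Vim -3.11 in control and -3.14 in null, Nes -3.38 and -2.84, adjusted p from 0.000266 to 0.0253), the 2 calls of 7 in each, beside backgrounds of 17.3% called lower in control and 13.5% in null. The Nes calls held with each clone left out in turn, and those of Vim were lost without E8 in control and without any 1 clone in null. In the deposited TPM the control changes were -0.38 for Vim and -1.04 for Nes, neither called, where the median of all genes was 1.96.

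Among 20 genes of the signals that induce astrocytes (cytokine, bone morphogenetic protein, Notch and nuclear factor I pathways), 18 were tested. In OPCs 3 were called lower in null: Zbtb20, a zinc-finger repressor that promotes astrocyte formation (-2.17, adjusted p = 0.00275), Socs3, the feedback inhibitor of STAT3 (-1.45, adjusted p = 0.00304), and Smad1, which carries bone morphogenetic protein signals (-0.87, adjusted p = 0.0489). This is 3 of 18 beside a background of 5.94%. The calls of Zbtb20 and Socs3 held with each clone left out in turn, and that of Smad1 held only without D7. As calls, all 3 depend on the rescaling of the control OPC libraries. In the deposited TPM the values were -0.13, 0.52 and 0.79 and none was called, but each lay below the median of all genes, 1.503. At DIV2 0 of 18 was called and 0 had an unadjusted p under 0.05, where 14.5% of all genes did. At DIV4 Zbtb20 alone was called (-1.65, adjusted p = 0.0243, 1 of 18 against 2.12%), with 36.01, 14.17 and 30.43 rescaled TPM in control and 5.501, 8.691 and 7.989 in null. Zbtb20 was lower in every null clone than in every control clone at both of these stages, and D7 was its highest control clone at DIV4. The DIV4 call was lost without D7 (-1.40, adjusted p = 0.0597) or E8 and without any 1 null clone. Without D7, 3 of 18 were called lower in null at DIV4 (background 3.28%), with the same limit: Id1, a target of bone morphogenetic protein signals (-2.51, adjusted p = 0.00678), its receptor gene Bmpr1a (-0.87, adjusted p = 0.00195) and Lifr, a cytokine receptor gene (-0.84, adjusted p = 0.0199). At DIV2 without D7, Id1 and Bmpr1a were called lower (adjusted p = 0.0402 and 0.0364, background 2.2%). In OPCs without D7, Zbtb20, Socs3, Smad1, Id1, Id2, Id4, Lifr and Notch1 were called lower (adjusted p from 0.00136 to 0.0438, background 9.39%).

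From OPC to DIV2, 7 of the 18 fell in control (background 17.3%), led by the Notch target Hes5 (-2.17, adjusted p = 0.024), Zbtb20 (-1.82, adjusted p = 0.00239) and Notch1 (-1.57, adjusted p = 0.0079). In null 3 fell, Hes5 (-2.81, adjusted p = 0.00711), Nfib (-1.41, adjusted p = 0.00412) and Notch1 (-1.17, adjusted p = 0.0418), and 2 rose, Zbtb20 (1.15, adjusted p = 0.0363) and Socs3 (1.09, adjusted p = 0.006), where 13.5% of all genes were called lower and 14.4% higher. Zbtb20 was the 1 gene of the list whose change from OPC to DIV2 differed between genotypes (2.97, adjusted p = 0.0273, background 0.265% higher). From DIV2 to DIV4 Zbtb20 fell in null (-1.68, adjusted p = 0.0392, background 1.04% lower). In control 0 of 18 was called and 3 had an unadjusted p under 0.05, where 10.3% of all genes did. In the deposited TPM the control values from OPC to DIV2 were 0.06 for Hes5, 0.80 for Zbtb20 and 0.97 for Notch1, all under the median of 1.96, and the genotype difference for Zbtb20 was 0.77 (adjusted p = 0.261). In control the Zbtb20 fall held with each clone left out, while Hes5 was lost without D3 and Notch1 without E8. In null Nfib was lost without 3F, Socs3 without 3F or 7F, Zbtb20 without D6 or 7F, and Hes5 and Notch1 without any 1 clone. The later fall of Zbtb20 in null was lost without any 1 clone, and the genotype difference without E8, D6 or 7F.

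Markers of other cell types moved with the clones at DIV4. The summed level of 10 oligodendrocyte genes was 8656 in D7, 1815 in D3 and 1806 in E8, and 2017 to 2576 in null. The clone with the least Gfap was thus the one with the most oligodendrocyte RNA, and the part of either in the other was not tested. The summed level of the 9 OPC genes in the table ran from 375.7 to 515.2 in control and from 309.5 to 316.8 in null, and that of 10 radial glia genes from 97.71 to 129.2 and from 94.77 to 102.9. Single OPC genes differed from that sum. D7 was the lowest clone for 5 of the 9 (Pdgfra, Cspg4, C1ql1, Cspg5 and Pcdh15) and the highest for 1 (Sox10). Among all genes that reached 1 at DIV4 it was the lowest in 24.2% and the highest in 28.7%. Pdgfra, the receptor for PDGF-AA, held 6.917 in D7, 48.92 in D3 and 50.82 in E8, against 7.479, 19.16 and 9.759 in null. Low values in D7 were therefore not limited to the astrocyte lists. For 10 neuronal genes the sums ran from 107.7 to 143.2 in control and from 82.58 to 111.5 in null.

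Beside the backgrounds of 1.65% higher and 1.15% lower at DIV2 and 2.69% and 2.12% at DIV4, single genes called between genotypes in these lists included Mobp, a myelin protein, at DIV2 (-3.56, adjusted p = 0.0223, 1 of 8 oligodendrocyte genes tested) and at DIV4 (-5.51, adjusted p = 0.000953, 1 of 8). They also included the adhesion gene Cdh2 at DIV2 (-0.97, adjusted p = 0.00127, 1 of 6 radial glia genes), the OPC transcription factor gene Olig1 at DIV4 (-1.68, adjusted p = 0.0184, 1 of 9) and the purinergic receptor gene P2ry12 at DIV4 (1.14, adjusted p = 0.0183, 1 of 2 microglia genes). Cdh2 and the DIV4 value of Mobp kept their calls with each clone left out. The DIV2 value of Mobp lost its call without D3, E8, 3F or 7F, and Olig1 and P2ry12 lost theirs without E8, 3F or 7F. No neuronal, mesenchymal, endothelial or ependymal gene of the 4, 1, 1 and 1 tested was called at DIV2 or DIV4, where 1 neuronal gene at each stage and 1 ependymal gene at DIV4 had an unadjusted p under 0.05. Of all genes, 14.5% at DIV2 and 20.5% at DIV4 had such a p. The 1 mesenchymal gene tested was Cspg4, which is also on the OPC list, so it does not speak for mesenchymal cells. Of the markers that define cells from outside the neural lineage, 8 of 10 microglial, 8 of 10 mesenchymal and 4 of 6 endothelial genes were under 1 in all 18 libraries, as were 4 of 6 ependymal genes. C1qa and Cldn5 were listed at 0 throughout.

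**Figure D4:**
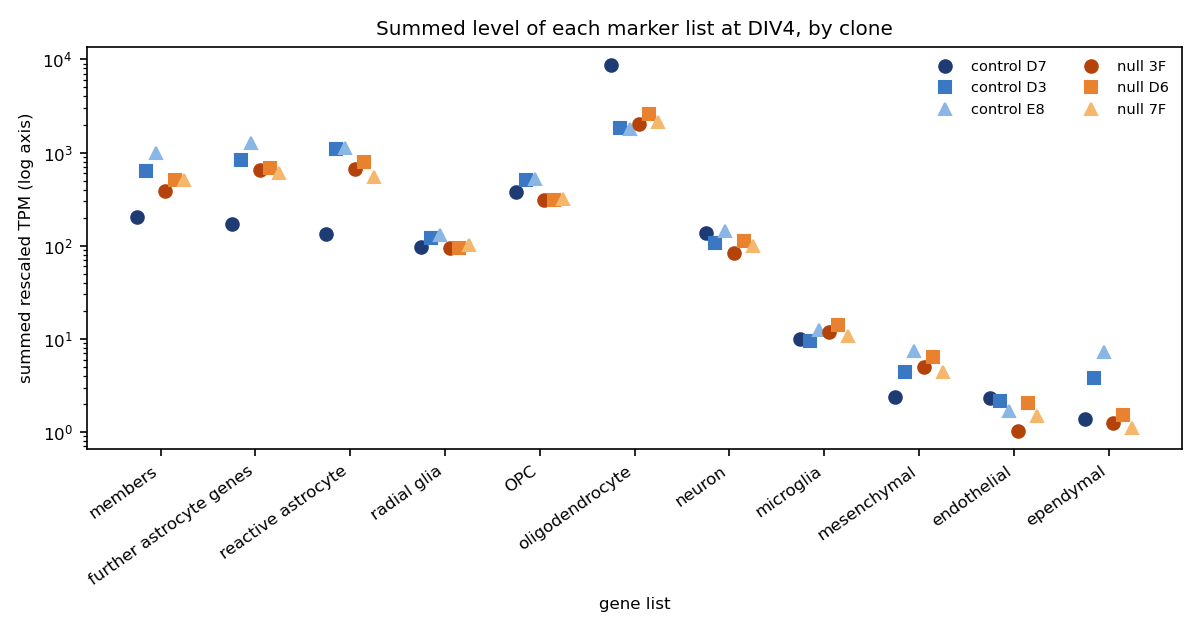
Summed rescaled TPM of each marker list at DIV4 (log axis), with 1 point per clone (blue for control, orange for null). Control D7 is lowest for the 3 astrocyte lists, at 202.3, 172.6 and 132.5, and highest for oligodendrocyte genes, at 8656.

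The genes whose level was most like that of Gfap were ranked by Pearson's r over the 18 libraries on log2(rescaled TPM + 1), among 7570 genes with a mean of at least 5. The libraries share 6 clones and 3 stages, so these values describe likeness and carry no p. The 10 nearest were Gpam (0.943), Nacc2 (0.929), Clu (0.92), Fermt2 (0.892), Slc6a9 (0.89), Ank2 (0.882), Nrcam (0.881), Ssfa2 (0.873), Pygb (0.872) and Eef2k (0.867). Clu, the secreted chaperone clusterin, is the 1 gene of these on the list of further astrocyte genes. At DIV4 Clu held 1.083 in D7, 57.25 in D3 and 143.5 in E8, against 25.69 to 38.36 in null. Each of the 10 was lowest in D7 at DIV4, which the choice by likeness to Gfap favours.

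The other members were less like Gfap. The r was 0.785 for Glul, 0.724 for Slc1a2, 0.651 for Aqp4, 0.54 for S100b, 0.529 for Gja1, 0.516 for Aldh1l1, 0.436 for Slc1a3, -0.081 for Fabp7 and -0.333 for Sox9. Over the 12 libraries of DIV2 and DIV4 alone it was 0.852 for Slc1a2, 0.816 for Slc1a3, 0.683 for Fabp7 and 0.605 for Sox9. It was 0.694 for Glul, 0.582 for Aqp4, 0.462 for Gja1, 0.132 for S100b and 0.058 for Aldh1l1. The r of Slc1a2, Slc1a3, Fabp7 and Sox9 was thus higher over the later stages than over all 18 libraries, and that of the other members was lower. These values mix stages with clones, and at DIV4 Slc1a3, Fabp7 and Sox9 did not order the clones as Gfap did. D3 and E8 lay above every null clone for all 3, where Gfap overlapped, and Sox9 in D7 lay within the null range.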

How the data were processed

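RNA-seq of 18 libraries was analysed from the authors' deposited table of TPM, 1 value per Ensembl transcript (93666 transcripts). Per the labels' protocols, libraries came from total RNA with a stranded kit and ribosomal RNA removal. STAR, Picard and mm10 are named in the submitters' processing notes, and the quantifier, annotation and filters are not given in the sources used here. TPM was summed by gene symbol, after 25 symbols turned into dates were restored through transcript identifiers, and rescaled by median-of-ratios factors (0.125 to 2.0) from 11432 genes above 0 in every library with a mean of at least 1. Coordinates and transcript types came from GENCODE M21 (GRCm38), which held 96.6% of the transcript identifiers.

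limma 3.58.1 (R 4.3.3) was fitted with eBayes and a mean trend to log2(rescaled TPM + 1) of the 12473 genes with a mean of at least 1, with 1 mean per group over all 18 libraries and Benjamini-Hochberg adjustment within each comparison. Fold changes are on that scale, which understates changes of low genes. The fit was tested on simulated data. Plots used matplotlib 3.10.9, and tables used pandas 2.3.3 and numpy 2.4.6 in Python 3.11.15.

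A clone is the same cell line at each stage, so clones pair libraries across stages. Deviations from group means correlated at a mean r of 0.119 within a clone (-0.009 to 0.423, 18 pairs) and -0.06 between clones (36 pairs). Alternatives were the deposited TPM, quantile normalization, a smaller pseudocount (0.1), other filters (none, or a mean of at least 5), eBayes without the trend, the compared libraries alone, the clone as a block and leaving out each clone.

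The members and all gene lists were chosen with earlier results of these data known. Named were all members, up to 3 called genes per other list with the largest change (between genotypes at DIV2 and DIV4, and in every comparison for further astrocyte and induction genes), the 10 genes most like Gfap, transcripts with at least 10% of a member and Thap1. Gfap-202, genes called without D7, reactive genes called from OPC to DIV2, the OPC genes low or high in D7 and the examples from DIV4 clone values were named after their values were seen.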

Additional observations from a re-analysis of the deposited data

Results flagged for a closer look

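Zbtb20, a gene of the astrocyte induction list, changed differently between the genotypes from OPC to DIV2, as tested with the interaction term in limma (2.97 on the log2 scale, null minus control, SE 0.54, adjusted p = 0.0273). Its rescaled TPM went from 34.66, 73.74 and 57.17 to 12.47, 13.91 and 16.44 in control D7, D3 and E8, and from 10.69, 13.47 and 8.955 to 13.52, 34.62 and 34.74 in null 3F, D6 and 7F. It thus fell in all 3 control clones and was higher at DIV2 in all 3 null clones. The value was 0.77 with the deposited TPM (adjusted p = 0.261), where the median of all genes was -1.664, and the call was lost without control E8 (3.02, adjusted p = 0.135), null D6 (2.90, adjusted p = 0.0931) or null 7F (2.63, adjusted p = 0.292).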

How the results depend on the processing

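Counts of called members were recomputed under each alternative, with these shifts by more than 1.5 times. Null against control, 0 of 7 called at each stage, gave 3 in OPCs with the deposited TPM, where 10407 of 12894 genes were called higher. Leaving out a clone gave 0 to 2 in OPCs, 0 to 3 at DIV2 and 0 to 3 at DIV4, the highest each time without control D7. Control DIV2 against OPC, 2 called, gave 1 with no filter, 0 with only the libraries compared, and 1 to 2 without a clone. Control DIV4 against DIV2, 0 called, gave 0 to 1. Null DIV2 against OPC, 4 called, gave 2 with a mean of at least 5, which fewer members pass, and 0 to 1 without a clone. Null DIV4 against DIV2, 0 called, gave 2 with only the libraries compared. The cause was not tested. With the clone as a replicate block the counts were 3 for control and 5 for null, DIV2 against OPC, and no other call changed. Of the 29 log2 changes of members, 3 changed sign when a clone was left out, with ranges of -0.04 to 1.60 for S100b in OPCs and, at DIV4, -2.75 to 0.10 for Slc1a3 and -0.25 to 0.04 for Glul. With the deposited TPM, Slc1a2 in OPCs was 0.34, Socs3 0.52 and Smad1 0.79 (null against control, median of all genes 1.503). In control DIV2 against OPC, Hes5 was 0.06, Zbtb20 0.80 and Notch1 0.97 (median of all genes 1.96). Of 29 calls named from the other lists, 7 held with each clone left out. The r of Fermt2 with Gfap was 0.79 with the deposited TPM. Of 701 alternative values, 546 kept direction and side of the threshold. Depth is unknown, so no counting error can be given, and with 3 clones a group, 1 line decides several calls. Levels near 0 (Aqp4, Gja1, Sox9 after OPC) carry no detection limit.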
